A study of Mus musculus with 8 samples.

Results

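The nuclear genes of the tricarboxylic acid (TCA) cycle and of complexes I to IV of the respiratory chain were examined in cells sorted from mouse colon early after bone marrow transplantation. The set is a list of 40 gene symbols, chosen by function but with earlier results of these data known. Of these, 39 were measured among the 22180 genes of the array. Cox6c could not be assigned, because its probe sets also carry the symbol of another gene. All recipients were female C57BL/6 mice conditioned for 5 days with busulfan and cyclophosphamide and then given bone marrow and T cells. The donors were C57BL/6 mice in the syngeneic group (n = 4 arrays) and LP/J mice in the allogeneic group (n = 4 arrays), so both groups went through conditioning and transplantation, and the ages were not given. Donor and recipient strains are those of the sample characteristics, while the protocol text calls the mice that gave the cells recipients. At day 2 the colon was digested with collagenase and cells that were CD45-, CD11b- and CD31+ were sorted as endothelial cells. The labels call the arrays of a group biological replicates and the series counts 4 mice in each group.

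The TCA cycle oxidizes acetyl groups in the mitochondrial matrix and hands the electrons to NADH and, through succinate dehydrogenase, to ubiquinone. Complex I takes electrons from NADH, complex II is succinate dehydrogenase itself, complex III passes electrons from ubiquinone to cytochrome c, and complex IV passes them to oxygen. Endothelial cells are known to rely largely on glycolysis, while colonocytes, the absorptive cells of the colon epithelium, oxidize butyrate in their mitochondria and depend on this pathway.

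Signals are log2 values on a scale on which the 22180 genes had a median of 5.33. The number of arrays limits the precision. The sorted cells carried the sort marker, with Pecam1 (CD31) between 9.76 and 11.58, and Ptprc (CD45) lay between 4.42 and 6.18. Epithelial transcripts were also abundant, with the colonocyte gene Car1 between 12.44 and 13.26, so no level below can be assigned to endothelial cells. In such bulk samples fewer cells of a type and less RNA per cell cannot be told apart. Syngeneic arrays 3 and 4 stood apart. Their means over 15 endothelial genes were 9.26 and 10.08, against 7.84 to 8.57 on the other arrays. Their means over 16 colon epithelial genes were 10.50 and 10.16, against 10.71 to 10.83 on the others. Results are therefore also given without these 2 arrays and with either list mean as a covariate.

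The question was whether the genes of mitochondrial oxidation differed between allogeneic and syngeneic recipients. None of the 39 genes passed a limma adjusted p of 0.05 over all genes, where 0.356% of all genes passed as higher and 0.113% as lower in the allogeneic group. The log2 change (allogeneic minus syngeneic) was positive for 34 of the 39, against 49.0% of all genes, and the median change was 0.20, against -0.01 over all genes. At an unadjusted limma p under 0.05, 13 of the 39 were higher and 0 lower, where 7.81% of all genes were higher and 5.43% lower. The members share the same 8 arrays and are not independent of one another. Without syngeneic arrays 3 and 4 the median change was 0.03, and 25 members had a positive change, where 11082 of all 22180 genes had one. In that fit 8 members were higher at the unadjusted threshold (6.2% of all genes) and 1 was lower (4.52%), and none passed over all genes (0.117% higher and 0.0541% lower). Without syngeneic array 2, in contrast, 21 members were higher at the unadjusted threshold, for which the share of all genes is not given here. In that fit 145 of all genes passed the adjusted threshold as higher, against 79 with all 8 arrays.

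**Figure D1:**
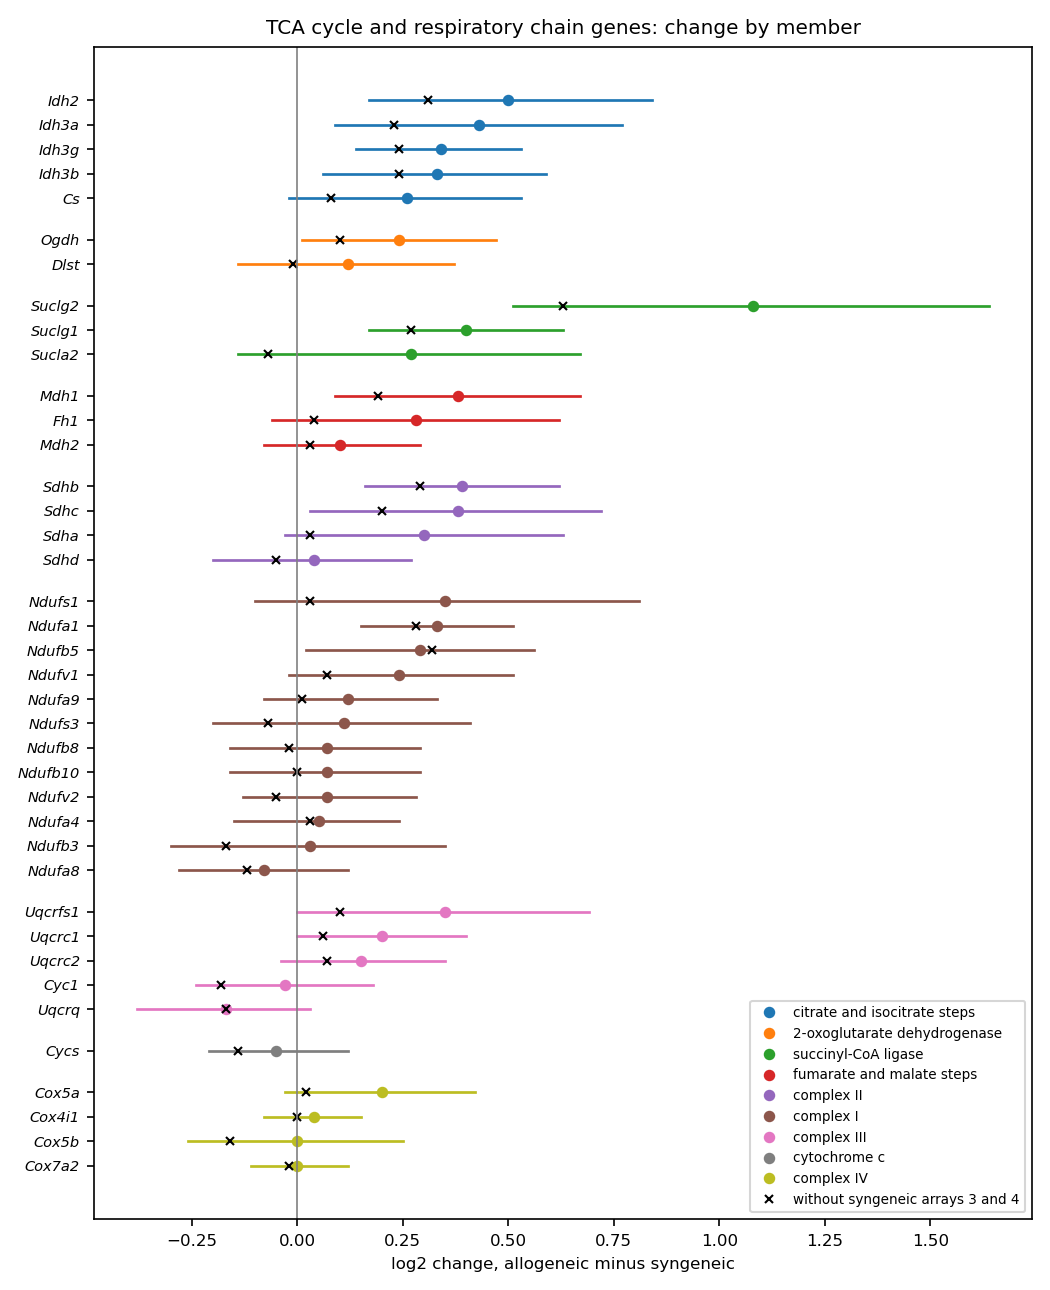
Log2 change of each of the 39 measured genes (points, allogeneic minus syngeneic, 4 arrays each) with the 95% interval of the limma fit (lines), by step of the cycle and by complex; crosses give the change without syngeneic arrays 3 and 4. The cycle genes at the top lie to the right of 0 and 3 of the 4 genes of complex IV at the bottom lie at 0.00 to 0.04; most crosses lie nearer to 0 than their points.

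By position in the pathway, all 13 genes listed for the cycle steps outside complex II had a positive change, with a median of 0.33. Of them 8 were higher at the unadjusted threshold. Both counts include Mdh1, whose enzyme is cytosolic and not in the matrix. Of the 4 genes of complex II, all had a positive change (median 0.34) and 2 were higher at that threshold. Of the 22 measured genes of complexes I, III and IV and cytochrome c, 17 had a positive change, the median was 0.07, and 3 were higher at it. The difference between these groups of genes was not tested. Without syngeneic arrays 3 and 4 the medians were 0.19, 0.11 and 0.00 in the same order. With the epithelial mean as a covariate they were 0.21, 0.16 and 0.00, and with the endothelial mean 0.17, 0.12 and 0.01.

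The first steps of the cycle make citrate and oxidize isocitrate. Idh3g, a regulatory subunit of the NAD-dependent isocitrate dehydrogenase, had the smallest p of this step. Its signals were 10.83, 10.82, 10.81 and 10.73 on allogeneic arrays 1 to 4 and 10.49, 10.63, 10.33 and 10.39 on syngeneic arrays 1 to 4. The groups did not overlap. Such a separation held toward higher values in 5.18% of all genes and toward lower values in 3.36%. Idh3g was 1.26-fold higher (log2 change 0.34 ± 0.09 SE, limma adjusted p = 0.127). Idh2, the mitochondrial NADP-dependent isocitrate dehydrogenase, had the largest change of the step. Its allogeneic signals were 8.94, 8.99, 9.04 and 9.01 and its syngeneic signals 8.64, 8.73, 8.56 and 8.04. These groups were also apart, and syngeneic array 4 was the lowest by far (log2 change 0.50 ± 0.15 SE, limma adjusted p = 0.183). The catalytic subunit gene Idh3a had a change of 0.43 and Idh3b, a further subunit, one of 0.33, the latter with groups apart. Cs, citrate synthase, had a change of 0.26 with syngeneic array 2 (9.86) inside the allogeneic range (9.80 to 9.88).

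The 2-oxoglutarate dehydrogenase complex was measured through 2 genes. Ogdh, its substrate-oxidizing subunit, gave 11.34, 11.32, 11.38 and 11.15 on the allogeneic and 11.12, 11.27, 11.03 and 10.80 on the syngeneic arrays. The groups overlapped through allogeneic array 4 and syngeneic array 2 (log2 change 0.24 ± 0.10 SE, limma adjusted p = 0.346). Dlst, the succinyl transferase of the complex, had a change of 0.12.

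Succinyl-CoA ligase carried the largest change of the set. The enzyme joins an alpha subunit, encoded by Suclg1, with a beta subunit that sets the nucleotide formed, GTP with Suclg2 and ATP with Sucla2. Suclg2 gave 8.77, 8.71, 9.01 and 8.80 on the allogeneic and 7.94, 8.44, 7.61 and 6.98 on the syngeneic arrays. The groups did not overlap, the allogeneic arrays were close together (SD 0.13) and the syngeneic arrays spread widely (SD 0.61). The change was 1.08 ± 0.26 (SE), or 2.11-fold, with a 95% interval of 0.51 to 1.64 (limma adjusted p = 0.103, and 0.0341 to 0.286 over the alternatives). It passed the threshold in 1 setting, without syngeneic array 2 (log2 change 1.31, limma adjusted p = 0.0341). Without syngeneic arrays 3 and 4 the change was 0.63. Suclg2 has a second, dim probe set (mean 3.92) with a change of 0.48.

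Suclg1 gave 10.89, 10.91, 10.85 and 10.89 on the allogeneic and 10.54, 10.69, 10.52 and 10.20 on the syngeneic arrays. Its groups were apart as well, with a 1.32-fold higher mean (log2 change 0.40 ± 0.10 SE, limma adjusted p = 0.127). Sucla2 gave 8.13, 8.17, 8.28 and 8.20 against 8.22, 8.30, 7.51 and 7.69. Syngeneic arrays 1 and 2 were as high as the allogeneic arrays, and only arrays 3 and 4 were low (log2 change 0.27 ± 0.18 SE, limma adjusted p = 0.586). Without these 2 arrays the change of Sucla2 was -0.07. The log2 difference Suclg2 minus Sucla2 within an array was 0.63 ± 0.08 in the allogeneic and -0.19 ± 0.39 in the syngeneic group (SD, n = 4 each). The groups did not overlap and the difference shifted by 0.81 (p = 0.0286 in an exact permutation test, two-sided, which is the least that 4 against 4 arrays can give). This pair was chosen after its values were seen. It is 1 of 3 pairs compared in this way, and its Benjamini-Hochberg adjusted p over these was 0.0429 in the exact permutation test. That adjustment does not account for the choice by values, so no conclusion is drawn from either p. For Cox7a1 minus Cox7a2 the shift was 0.97 with the same p. Cox7a1 is itself named below for its small p in its list, so no conclusion is drawn from that p either. For Idh3a minus Idh3g the shift was 0.09 (exact permutation p = 0.571). Without syngeneic arrays 3 and 4 the shift of Suclg2 minus Sucla2 was 0.70.

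The sequences just before the annotated starts of the 3 subunit genes are shown as a description. The log2 changes of the beta subunit genes were 1.08 (Suclg2) and 0.27 (Sucla2), and no conclusion is drawn from their difference. They are the 200 bases before the start, 5′ to 3′ on the gene's strand, from RefSeq (GRCm38.p6), at chr6:73248305-73248504 (+ strand) for Suclg1, chr6:95718847-95719046 (- strand) for Suclg2 and chr14:73552586-73552785 (+ strand) for Sucla2. Capitals mark a match to the letters GCGC, any base, then TGCGC, which is the type of site bound by NRF1, a regulator of nuclear genes for the respiratory chain.
Suclg1: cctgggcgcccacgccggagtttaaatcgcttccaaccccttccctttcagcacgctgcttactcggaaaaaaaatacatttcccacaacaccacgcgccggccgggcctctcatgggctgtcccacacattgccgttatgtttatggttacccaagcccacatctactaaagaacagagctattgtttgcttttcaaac
Suclg2: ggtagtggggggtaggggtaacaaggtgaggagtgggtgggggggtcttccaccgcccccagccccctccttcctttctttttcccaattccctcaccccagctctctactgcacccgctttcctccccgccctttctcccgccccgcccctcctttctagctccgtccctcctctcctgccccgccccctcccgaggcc
Sucla2: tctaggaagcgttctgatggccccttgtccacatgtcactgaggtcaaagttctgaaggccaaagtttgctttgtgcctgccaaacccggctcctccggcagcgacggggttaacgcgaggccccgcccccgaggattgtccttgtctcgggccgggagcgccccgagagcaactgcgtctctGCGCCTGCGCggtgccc
Of the 3 stretches, that of Sucla2 holds the letters and those of Suclg1 and Suclg2 do not. In the windows from 250 bases before to 50 after a start, searched on both strands, 5 of the 32 members with a window held these NRF1-type letters (15.6%), against 5.19% of 27025 genes. These were Sucla2, Sdha, Sdhd, Uqcrc1 and Ndufa8. The letters CCGGAAG, of the site bound by ETS factors such as GABP, were in 6 members (18.8%), against 9.93% of genes. These were Idh3b, Idh3g, Dlst, Sdhb, Sdhd and Ndufs3. A match describes the letters and does not show that a factor binds, and its relation to the changes was not tested.

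The last steps turn fumarate to malate and malate to oxaloacetate. Mdh1, the cytosolic malate dehydrogenase of the malate-aspartate shuttle, gave 10.31, 10.25, 10.33 and 10.16 on the allogeneic and 9.98, 10.18, 9.84 and 9.54 on the syngeneic arrays. Syngeneic array 2 lay just above the lowest allogeneic array (log2 change 0.38 ± 0.13 SE, limma adjusted p = 0.241). The mitochondrial enzyme Mdh2 had a change of 0.10, and Fh1, fumarate hydratase, one of 0.28, both with overlapping groups.

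Complex II oxidizes succinate in the cycle and feeds the chain. Sdhb, its iron-sulfur subunit, gave 10.05, 10.10, 10.01 and 10.21 on the allogeneic and 9.71, 9.90, 9.67 and 9.52 on the syngeneic arrays. The groups did not overlap and the change came to 0.39 ± 0.10 on the log2 scale (SE, limma adjusted p = 0.138). Sdhc, a membrane anchor, had a similar change of 0.38 with overlapping groups. The flavin-bearing catalytic subunit Sdha had a change of 0.30, which was 0.03 without syngeneic arrays 3 and 4. The other anchor, Sdhd, had a change of 0.04.

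**Figure D2:**
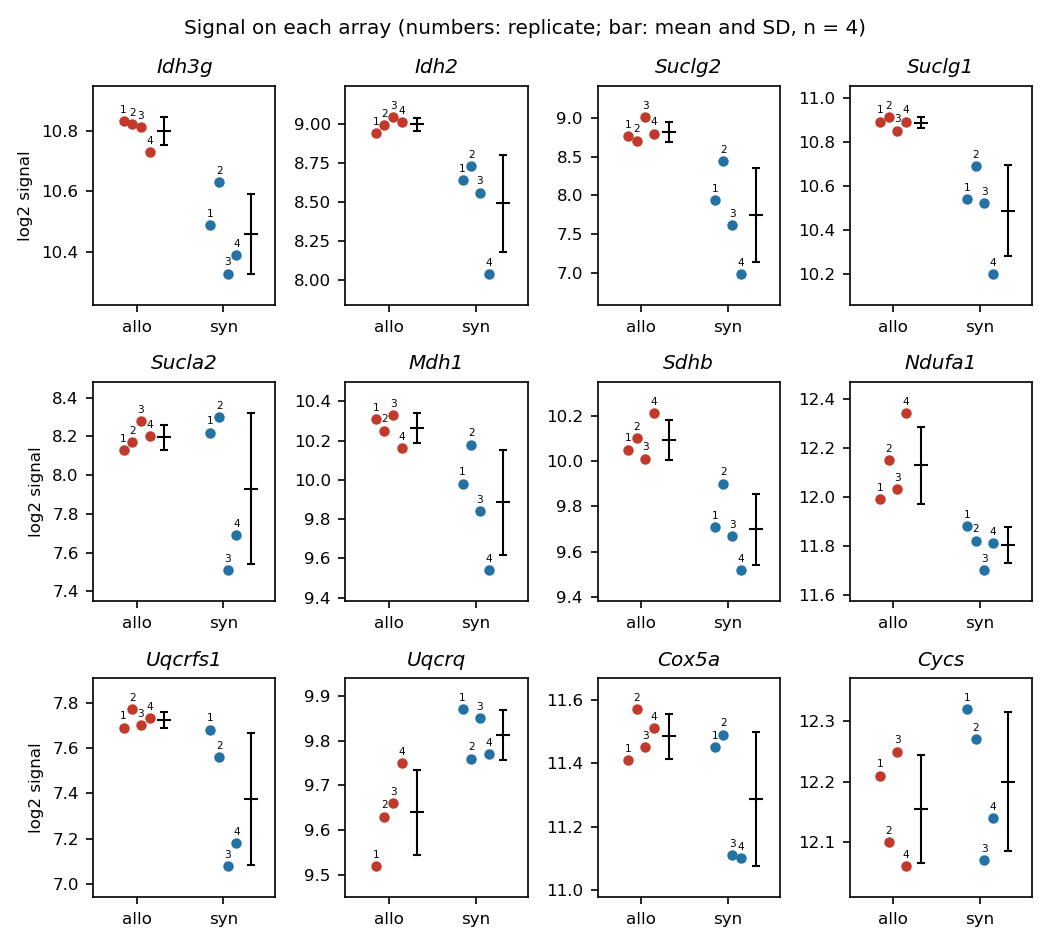
Log2 signal of 12 of the genes on each array, with the replicate number beside each point and the mean and SD (n = 4) beside each group; the axes differ between panels and do not start at 0. Suclg2, Suclg1, Idh2, Idh3g, Sdhb, Ndufa1 and Uqcrfs1 have no overlap between groups and are higher on the allogeneic arrays. Uqcrq also has no overlap and is lower on them. Sucla2 and Cox5a are low on syngeneic arrays 3 and 4 alone.

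Complex I was represented by 12 listed genes, of which 11 had a positive change with a median of 0.09. Ndufa1, a small membrane subunit, gave 11.99, 12.15, 12.03 and 12.34 on the allogeneic and 11.88, 11.82, 11.70 and 11.81 on the syngeneic arrays. It was the only one of the 12 with groups apart, and allogeneic minus syngeneic came to 0.33 ± 0.08 on the log2 scale (SE, limma adjusted p = 0.121). Its syngeneic arrays were close together (SD 0.08), and without arrays 3 and 4 its change was 0.28. Ndufb5, another accessory membrane subunit, gave 8.66, 8.81, 8.53 and 8.75 against 8.29, 8.44, 8.28 and 8.57. Its groups overlapped through syngeneic array 4 (log2 change 0.29 ± 0.12 SE, limma adjusted p = 0.336). Ndufs1, the largest iron-sulfur subunit, had the largest change of the complex. It gave 8.09, 8.26, 8.15 and 7.67 against 7.91, 8.12, 7.32 and 7.40, and its spread within groups was as large as the difference (log2 change 0.35 ± 0.21 SE, limma adjusted p = 0.505). Its change was 0.03 without syngeneic arrays 3 and 4. The other core subunits had changes of 0.24 (Ndufv1, which binds the flavin and NADH), 0.11 (Ndufs3) and 0.07 (Ndufv2). The accessory subunits Ndufa9, Ndufb8, Ndufb10 and Ndufb3 had changes of 0.12, 0.07, 0.07 and 0.03. Ndufa8 had a change of -0.08, and its second, dimmer probe set (mean 6.12) one of -0.64. Ndufa4, listed here by its name although its protein is now placed in complex IV, had one of 0.05.

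In complex III 3 of the 5 genes had a positive change, with a median of 0.15. Uqcrfs1, the Rieske iron-sulfur protein, gave 7.69, 7.77, 7.70 and 7.73 on the allogeneic and 7.68, 7.56, 7.08 and 7.18 on the syngeneic arrays. The groups were apart, with syngeneic array 1 just below the lowest allogeneic array (log2 change 0.35 ± 0.16 SE, limma adjusted p = 0.373), and the change was 0.10 without syngeneic arrays 3 and 4. The core proteins Uqcrc1 and Uqcrc2 had changes of 0.20 and 0.15, and Cyc1, cytochrome c1, one of -0.03. Uqcrq, a small subunit, was the only member whose allogeneic arrays all lay below the syngeneic ones, at 9.52, 9.63, 9.66 and 9.75 against 9.87, 9.76, 9.85 and 9.77. That difference was small (log2 change -0.17 ± 0.09 SE, limma adjusted p = 0.465). Cycs, which encodes cytochrome c, gave 12.21, 12.10, 12.25 and 12.06 against 12.32, 12.27, 12.07 and 12.14. These groups overlapped (log2 change -0.05 ± 0.07 SE, limma adjusted p = 0.846). Cycs has 5 probe sets and gene copies of like sequence, and the changes of the probe sets lay between -0.07 and 0.05.

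In complex IV the median change of the 4 measured genes was 0.02. Cox5a gave 11.41, 11.57, 11.45 and 11.51 on the allogeneic and 11.45, 11.49, 11.11 and 11.10 on the syngeneic arrays, so that syngeneic arrays 3 and 4 alone were low (log2 change 0.20 ± 0.10 SE, limma adjusted p = 0.448). Its change was 0.02 without them. The other 3 measured subunits had changes of 0.04 (Cox4i1), 0.00 (Cox5b) and 0.00 (Cox7a2). Their 95% intervals were -0.08 to 0.15, -0.26 to 0.25 and -0.11 to 0.12. Cox5b has a second, dimmer probe set (mean 6.47) with a change of 0.43. A p that misses the threshold does not show that these levels were equal.

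The members differed among the syngeneic arrays more than among the allogeneic ones. The lowest value of a member was on syngeneic array 3 or 4 for 34 of the 39 genes, against 33.5% of all genes. For 27 of the 39 both arrays lay below all 6 others, against 8.79% of all genes. The median SD of a member was 0.08 among the allogeneic and 0.20 among the syngeneic arrays, against 0.18 and 0.22 over all genes. The syngeneic SD was the larger for 34 of the 39 members, against 60.1% of all genes. Averaged over the members, the deviation from each gene's own mean was 0.08, 0.12, 0.10 and 0.12 on the allogeneic arrays. On syngeneic arrays 1 to 4 it was -0.01, 0.08, -0.21 and -0.28. On these 4 arrays the colon epithelial list deviated in the same order (0.07, 0.17, -0.16 and -0.50) and the endothelial list in the opposite order (-0.13, -0.41, 0.64 and 1.46). The part of these cell types in the members' changes was not tested beyond the fits with covariates. Of the epithelial genes 14 of 16, and of the endothelial genes 0 of 15, had a positive change. None of either list passed over all genes.

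**Figure D3:**
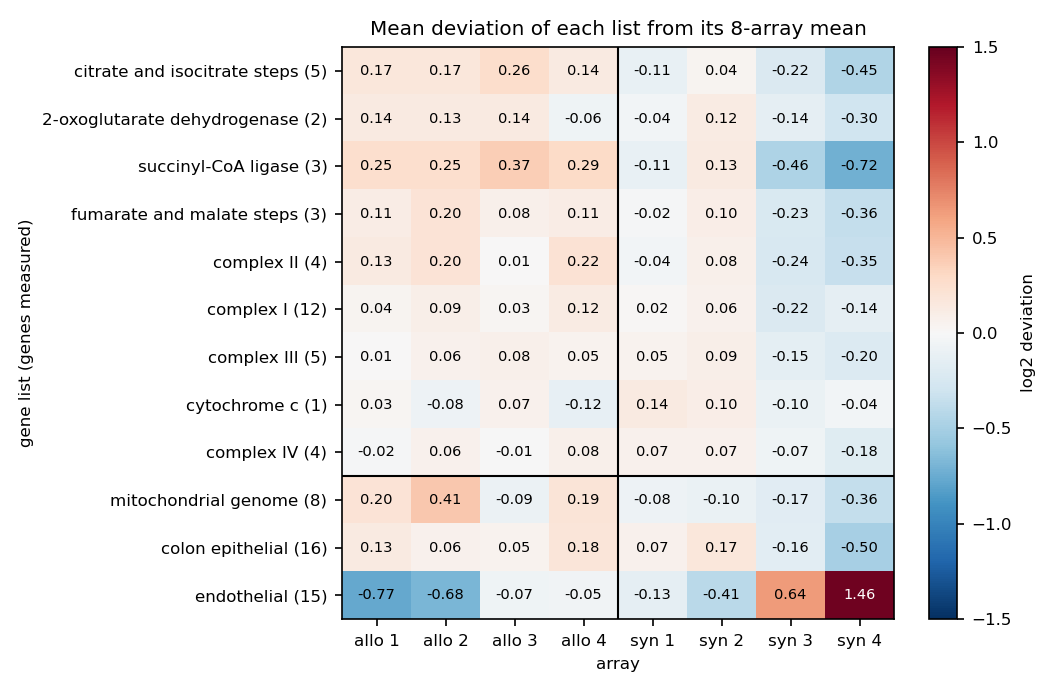
Mean log2 deviation of the genes of each list (rows, number of measured genes in brackets) from their own 8-array means, on each of the 8 arrays (columns). The cycle steps, complexes I to IV and the mitochondrial genome, but not cytochrome c, are lowest on syngeneic arrays 3 and 4. On these arrays the endothelial list is highest (0.64 and 1.46) and the epithelial list lowest (-0.16 and -0.50).

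Markers of other cell types were also read. The list mean of 10 of 11 leukocyte genes ran from 4.73 to 5.43 in the allogeneic and from 4.99 to 5.59 in the syngeneic group. Only S100a8, a neutrophil gene, passed over all genes, as lower (log2 change -1.94, limma adjusted p = 0.00424). Its signals were dim, at 2.59 to 3.41 in the allogeneic and 4.75 to 5.25 in the syngeneic group, below the median of 5.33 over all genes. The list mean of 10 fibroblast and mural genes ran from 7.83 to 8.73 and from 7.81 to 8.42, with changes in both directions. Of these, Pdgfra, Lum and Dcn, which mark fibroblasts, were higher at the unadjusted threshold (log2 changes 1.03, 0.83 and 0.51) and Pdgfrb, a mural gene, was lower (-0.53). Without syngeneic arrays 3 and 4 Lum and Dcn were still higher at it (0.86 and 0.68), and with the epithelial covariate no gene of the list was. Of the same list, Col1a1, Col1a2 and Col3a1 had changes of 0.21, 0.06 and -0.12, and the list median was -0.03. The part of fibroblasts in the members' changes was not tested. Slc4a1 was the only one of 5 erythroid genes measured and was at 4.32 to 4.76. The values are log2 signals, on which no gene is at 0.

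Most of the 13 members left the unadjusted threshold in at least 1 of the fits that take these arrays or cell types into account. These fits are not independent checks. The endothelial mean was highest and the epithelial mean lowest on syngeneic arrays 3 and 4, which the first of the fits leaves out. Of the 13 members higher at the unadjusted threshold, 6 stayed higher at it without syngeneic arrays 3 and 4, with the epithelial covariate and with the endothelial covariate. They were Idh3g, Suclg1, Suclg2, Sdhb, Ndufa1 and Ndufb5, and 3.73% of all genes met the same criterion. With each array left out in turn as well, 5 did and Ndufb5 did not, against 3.05% of all genes. Their changes without syngeneic arrays 3 and 4 were 0.24, 0.27, 0.63, 0.29, 0.28 and 0.32 in the order named, which for Idh3g, Suclg1, Suclg2, Sdhb and Ndufa1 was less than over all arrays. With the epithelial covariate 7 of the 39 members were higher at the unadjusted threshold (6.22% of all genes) and 1 lower (4.04%), and 27 had a positive change (48.9%). With the endothelial covariate 6 were higher (5.99%) and 0 lower (3.98%), and 27 had a positive change (49.3%). No member passed over all genes with either covariate, where 0.176% of genes passed as higher and 0.0541% as lower with the epithelial one, and 0.0676% and 0.0406% with the endothelial one. Cyc1 was the lower member without syngeneic arrays 3 and 4 and with the epithelial covariate (changes of -0.18 and -0.16).

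Further genes of the pathway, from lists that hold no member, were read in the same way, and none passed over all genes. Without syngeneic arrays 3 and 4 the median changes of these 10 lists lay between -0.07 and 0.15. All 8 measured genes of the mitochondrial genome, whose transcripts are made inside the organelle, had a positive change (median 0.32), and 5 were higher at the unadjusted threshold. ND3, a complex I subunit, gave 11.19, 11.62, 10.60 and 11.09 on the allogeneic and 10.32, 10.50, 10.33 and 10.41 on the syngeneic arrays. The groups were apart and the allogeneic arrays spread widely (log2 change 0.74 ± 0.17 SE, limma adjusted p = 0.103). Without allogeneic array 3 it passed (log2 change 0.91, limma adjusted p = 0.0471). ND2 had a change of 0.46 ± 0.12 (SE, limma adjusted p = 0.123) with overlapping groups. Both changes were of like size without syngeneic arrays 3 and 4 (0.72 and 0.53), while the median of the 8 genes fell to 0.15. That median was 0.16 with the epithelial covariate. With the endothelial covariate it was 0.12, and 6 of the 8 genes had a positive change. ND1, ND4 and CYTB had changes of 0.07, 0.13 and 0.11.

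Of the 6 measured further genes of the cycle 5 had a positive change (median 0.38, and 0.04 without syngeneic arrays 3 and 4) and 2 were higher at the unadjusted threshold. Aco1, the cytosolic aconitase that also serves as an iron sensor, gave 9.44, 9.12, 9.19 and 9.26 against 8.56, 8.84, 8.89 and 8.28. The groups were apart (log2 change 0.61 ± 0.15 SE, limma adjusted p = 0.114). Pcx, pyruvate carboxylase, which refills oxaloacetate, had a change of 0.50 ± 0.19 (SE, limma adjusted p = 0.289). Of 11 genes of pyruvate entry 8 had a positive change (median 0.18) and 3 were higher at the unadjusted threshold. Mpc1, a subunit of the mitochondrial pyruvate carrier, gave 9.03, 9.16, 8.99 and 9.36 against 8.54, 8.72, 8.71 and 8.70. Its groups were well apart (log2 change 0.47 ± 0.12 SE, limma adjusted p = 0.121), also without syngeneic arrays 3 and 4 (0.51). Pdk2, a kinase that inhibits pyruvate dehydrogenase, had a change of 0.74 ± 0.22 (SE, limma adjusted p = 0.176).

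Among the further subunits of the chain, of 21 other complex I subunits 19 had a positive change (median 0.12) and 3 were higher at the unadjusted threshold, led by Ndufa13 (0.25) and Ndufa10 (0.31). The 3 other complex III subunits had changes between 0.03 and 0.16, among them Uqcrb (0.16) and Uqcrh (0.11). Of 16 genes of complex V, the ATP synthase, 12 had a positive change (median 0.13) and 2 were higher at that threshold, Atp5h (0.25, but -0.01 as the mean of its probe sets) and Atpif1 (0.17), the inhibitor of its reverse reaction. Of 11 other complex IV genes 8 had a positive change (median 0.11), 3 were higher and 1 lower at the threshold. Cox7a1, the isoform typical of heart and skeletal muscle, gave 9.97, 9.74, 9.56 and 10.43 against 9.11, 9.34, 9.04 and 8.33. The groups were apart, and allogeneic minus syngeneic came to 0.97 ± 0.23 on the log2 scale (SE, limma adjusted p = 0.105). Its change was 0.70 without syngeneic arrays 3 and 4, while its counterpart Cox7a2 had a change of 0.00. Cox7a2l, a factor that joins complexes III and IV into supercomplexes, gave 8.39, 8.40, 8.36 and 8.42 against 7.81, 8.03, 8.01 and 8.06. Both groups were tight and apart (log2 change 0.42 ± 0.11 SE, limma adjusted p = 0.142).

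Among 32 assembly factors 23 had a positive change (median 0.15), 5 were higher and 1 was lower at the unadjusted threshold. Surf1, which assists the assembly of complex IV, had the smallest p of all these lists. It gave 8.24, 8.44, 8.26 and 8.15 on the allogeneic and 7.58, 7.93, 7.38 and 7.52 on the syngeneic arrays. The groups were apart, and allogeneic minus syngeneic came to 0.67 ± 0.15 on the log2 scale (SE, limma adjusted p = 0.0833), and the change was 0.52 without syngeneic arrays 3 and 4. It passed with dim genes left out and without syngeneic array 2 (log2 changes 0.67 and 0.78, limma adjusted p = 0.0469 and 0.0384). Cox18, which inserts a complex IV subunit into the membrane, had a change of -0.56 ± 0.20 (SE, limma adjusted p = 0.268). Of 8 genes that bring electrons to ubiquinone by other routes 6 had a positive change (median 0.29), with Etfdh at 0.67 and Etfa at 0.42, which pass on electrons from fatty acid oxidation (SE 0.20 and 0.14, limma adjusted p = 0.166 and 0.212).

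Of 17 regulators of mitochondrial genes 10 had a positive change (median 0.04), 3 were higher and 2 lower at the unadjusted threshold. Hif1a, the oxygen-regulated transcription factor that favours glycolysis, gave 8.80, 8.39, 9.09 and 8.53 on the allogeneic and 9.24, 9.23, 9.17 and 9.21 on the syngeneic arrays. All allogeneic arrays lay below the syngeneic ones, which were tight (log2 change -0.51 ± 0.15 SE, limma adjusted p = 0.168, and -0.53 without syngeneic arrays 3 and 4). Ppargc1a, a coactivator of mitochondrial gene expression, had a change of 0.94 ± 0.32 (SE, limma adjusted p = 0.241) with overlapping groups, and 0.56 without syngeneic arrays 3 and 4. Nrf1 and Tfam had changes of -0.16 and 0.14.

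**Figure D4:**
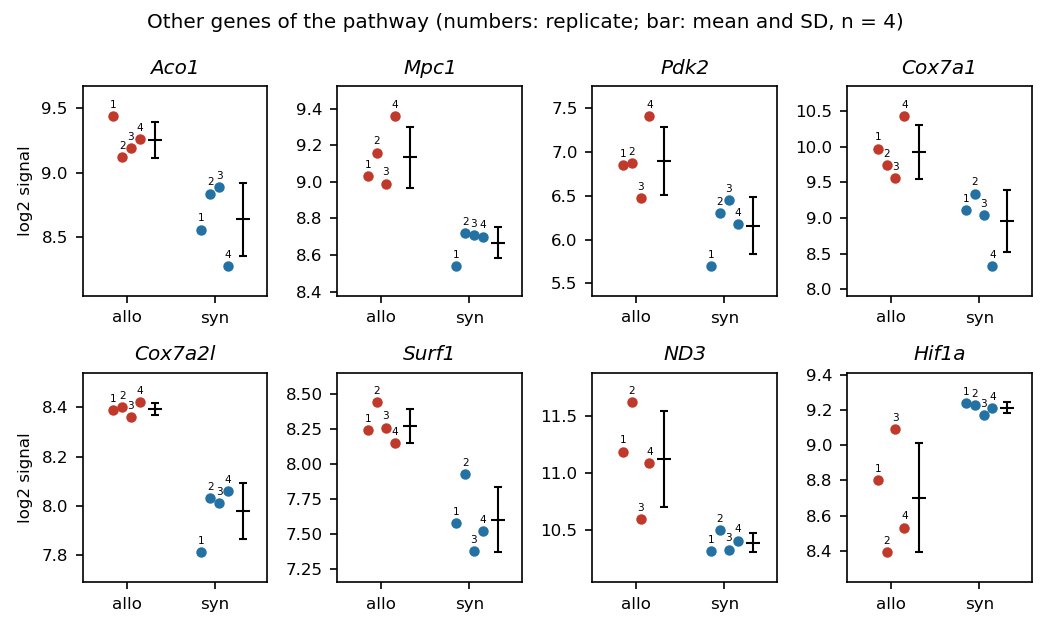
Log2 signal of 8 further genes of the pathway on each array, with the replicate number beside each point and the mean and SD (n = 4) beside each group; the axes differ between panels and do not start at 0. In each panel the groups do not overlap, and Hif1a alone is lower on the allogeneic arrays. The panels were chosen after the values were seen and do not stand for the lists. Other named genes of these lists, such as ND2, Pcx, Cox18 and Ppargc1a, had overlapping groups. Over all genes the groups were apart toward higher values in 5.18% and toward lower values in 3.36%.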

How the data were processed

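RNA of 8 sorted samples was measured on Affymetrix Mouse Gene 2.0 arrays. The authors deposited a log2 signal for every probe set. The submitters' processing notes name RMA and Affymetrix Expression Console 1.4.1, with no settings. Scanner files were not used here, and no batch was named. Probe sets with exactly 1 symbol in the platform annotation were kept, and for each gene that with the highest mean (22180 genes). A linear model with a term for the group was fitted to all genes with limma 3.58.1 in R 4.3.3 (lmFit, eBayes with an intensity trend), p-values were adjusted by Benjamini-Hochberg, and the threshold was 0.05. The code was tested on simulated data with 4 arrays in each group, in which genes varied independently and the spreads of the real genes were shuffled among genes. There 28.4% of 1.5-fold and 65.6% of 2-fold changes passed the adjusted threshold, and 4.86% of the calls were unchanged genes. Many changes of such a size can thus miss the threshold. Differences between 3 pairs of genes within an array were tested by exact permutation, and no conclusion is drawn from these p-values. Members and lists were chosen with earlier results of these data known, and are described by counts and medians without a test. Values on every array are given for the member of each step or complex with the smallest p and that with the largest change, and statistics for the 2 genes with the smallest p in each further list. Other genes with values on every array (such as Suclg1, Sucla2, Ndufb5 and Uqcrq) and those named with a change alone were chosen after their values were seen. Alternatives changed the threshold, the variance prior, the filter on dim genes, the choice of probe set, array scaling and weights, or added covariates or the replicate number, or left out arrays. RefSeq promoters (GRCm38.p6) were found for 32 members.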

Additional observations from a re-analysis of the deposited data

Results flagged for a closer look

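Each group of 4 arrays was searched for an array far from the other 3, for the 39 members and for the means of the members, of each step or complex and of the marker lists. Of 108 groups 3 held such an array, and chance gives about 1 in 20. Ndufa9 was 10.91 on allogeneic array 4, against 10.70 to 10.73 on the other allogeneic arrays. Cox7a2 was 12.61 on allogeneic array 4, against 12.48 to 12.50. The mean of both 2-oxoglutarate dehydrogenase genes was 10.17 on allogeneic array 4, against 10.35 to 10.37.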

How the results depend on the processing

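No member passed in the main analysis, and 0 to 1 did as higher with each array left out (Suclg2 without syngeneic array 2). Over all genes 79 higher and 25 lower calls became 138 and 55 with dim genes left out, 203 and 102 at an adjusted p under 0.1, 26 and 12 without syngeneic arrays 3 and 4, 39 and 12 with the epithelial covariate and 15 and 9 with the endothelial one. Array weights gave 39 lower calls. Leaving out each array gave 4 to 145 higher and 4 to 35 lower calls. Members higher at the unadjusted threshold numbered 13, and 8, 7 and 6 without syngeneic arrays 3 and 4 and with either covariate, and 9 to 21 with each array left out. The members' median change of 0.20 was 0.03 without syngeneic arrays 3 and 4 and 0.05 with the endothelial covariate (0.14 to 0.27 with each array left out). That of the 2-oxoglutarate dehydrogenase genes was 0.03 with the endothelial covariate. That of the fumarate and malate steps was 0.04, 0.13 and 0.08, and that of complex II 0.11, 0.16 and 0.12, without syngeneic arrays 3 and 4, with the epithelial and with the endothelial covariate. That of complex IV was 0.02, became -0.01 without these arrays and with the epithelial covariate, and 0.12 with the mean of probe sets. Atp5h turned to -0.01 with the mean of its probe sets. Except where a setting leaves out arrays or genes or averages probe sets, the cause was not tested. With the replicate number as a block 40 genes were higher and 28 lower, and no member call changed. Same-numbered arrays correlated between -0.096 and 0.095, and 3 of 8 arrays correlated best with their own number, so the numbers were not taken as pairs. The number of arrays limits the precision, with SEs of the members' changes between 0.05 and 0.26.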
